A study of Homo sapiens with 6 samples.

Results

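Interferons are secreted proteins that warn cells of viral nucleic acid, and the genes described here are type I and type III interferon genes together with the receptor chains for all types of interferon. The set was defined by gene symbol, with earlier results of these data known. It held 10 of the 58174 genes in the files: the type I interferon IFNB1, the type III interferons IFNL1, IFNL2 and IFNL3, the type I receptor chains IFNAR1 and IFNAR2, the type III receptor chains IFNLR1 and IL10RB, and the type II receptor chains IFNGR1 and IFNGR2. The cells were T24, an established line from a human bladder carcinoma. All cells had been infected with a lentivirus and selected with puromycin as stable lines, and carried either a scrambled control shRNA (shRNA-NC, 3 samples) or an shRNA against UBC9 (shRNA-UBC9, 3 samples). UBC9 is the conjugating enzyme that attaches the small protein SUMO to its targets. A single shRNA sequence against UBC9 was used, so effects of the lost protein and of that sequence cannot be told apart. The labels do not say whether the 3 samples of a group came from separate cultures, so p-values measure only the spread between these samples, which may be technical.

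Type I and type III interferons are made within hours when sensors of foreign or misplaced nucleic acid switch on the transcription factors IRF3, IRF7 and NF-kappaB. Type I interferons act through IFNAR1 and IFNAR2, which almost every nucleated cell carries. Type III interferons act through IFNLR1, which is largely restricted to epithelia such as the urothelium, paired with IL10RB, which also serves the IL-10 family. Both receptors signal through JAK1 and TYK2 to STAT proteins and IRF9. IFN-gamma, the type II interferon, is a product of lymphocytes, and its receptor pairs IFNGR1, which binds the ligand, with IFNGR2, which brings in JAK2.

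The ligand genes lie in 2 places of GRCh38. IFNB1 has no intron and occupied chr9:21077104-21077942 on the minus strand, while IFNL3 (chr19:39243455-39245250, minus strand), IFNL2 (chr19:39268396-39270188, plus strand) and IFNL1 (chr19:39296407-39298673, plus strand) lay within 55.2 kb of each other. RefSeq start windows (GRCh38.p14) were found for 9 of the 10 genes (all but IFNAR2), 12 windows in all, and the 250 bases before the start were searched on both strands. The letters searched were AANNGAAA for IRF-type, GGANNTTCC for NF-kappaB-type and TTCNNNGAA for STAT-type motifs, chosen with these sequences in view. They occurred in 20.3%, 3.84% and 6.57% of 35116 such windows of all genes, respectively. The window of IFNB1 (chr9:21077943-21078192, minus strand) is shown because it held all these motifs, that of IFNL1 (chr19:39296157-39296406, plus strand) because IFNL1 gave most of the reads of these 4 ligand genes, and that of IFNGR2 (chr21:33403163-33403412, plus strand) because IFNGR2 was the most abundant receptor transcript. None of these windows overlapped a gene of GENCODE release 44. Each runs 5′ to 3′ and ends at the base before the start, and capitals mark the matches.
IFNB1: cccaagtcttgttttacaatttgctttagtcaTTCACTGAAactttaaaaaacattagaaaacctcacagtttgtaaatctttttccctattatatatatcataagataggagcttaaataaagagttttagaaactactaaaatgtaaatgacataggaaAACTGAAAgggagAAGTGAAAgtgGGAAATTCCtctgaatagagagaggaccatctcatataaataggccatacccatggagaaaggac
IFNL1: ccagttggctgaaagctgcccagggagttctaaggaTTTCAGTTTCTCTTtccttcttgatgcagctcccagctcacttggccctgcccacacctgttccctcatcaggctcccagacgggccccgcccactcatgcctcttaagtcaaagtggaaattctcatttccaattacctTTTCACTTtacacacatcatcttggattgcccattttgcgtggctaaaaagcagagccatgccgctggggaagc
IFNGR2: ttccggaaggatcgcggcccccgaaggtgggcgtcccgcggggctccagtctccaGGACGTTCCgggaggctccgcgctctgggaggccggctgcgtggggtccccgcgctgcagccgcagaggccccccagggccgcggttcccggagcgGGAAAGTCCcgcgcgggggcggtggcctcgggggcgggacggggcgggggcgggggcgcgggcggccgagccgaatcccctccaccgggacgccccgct

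In IFNB1, IRF-type matches lay 89 to 82 and 76 to 69 bases before the start, an NF-kappaB-type match 65 to 57 bases and a STAT-type match 218 to 210 bases before it. IFNL1 had IRF-type matches 214 to 207, 208 to 201 and 74 to 67 bases before the start, of which the first and second overlapped. IFNGR2 had NF-kappaB-type matches 195 to 187 and 99 to 91 bases before the start. IFNLR1 had 1 STAT-type match, 238 to 230 bases before its start, and none of the motifs occurred in the windows of IL10RB, IFNAR1 and IFNGR1 or in a further window inside IFNL3. A match is a description of the letters and not a bound site.

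IFNL2 and IFNL3 are near-identical copies. Their windows shared 249 of 250 bases, with IRF-type matches at the same places, 176 to 169 and 70 to 63 bases before the start. The first 100 bases of each window (IFNL2 from chr19:39268146-39268395 on the plus strand, IFNL3 from chr19:39245251-39245500 on the minus strand) are shown with the base that differs, 220 bases before the start, in capitals.
IFNL2: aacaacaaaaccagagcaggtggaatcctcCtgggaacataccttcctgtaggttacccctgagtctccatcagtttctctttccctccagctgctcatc
IFNL3: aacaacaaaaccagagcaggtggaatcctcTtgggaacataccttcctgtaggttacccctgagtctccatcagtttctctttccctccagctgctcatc

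Of the windows of 50 bases in the IFNL2 transcript, 37.8% also occurred in the IFNL3 transcript, and of the windows of 150 bases 5.11% did. The IFNL1 transcript shared none of its windows of 50, 100 or 150 bases with either. Reads of IFNL2 and IFNL3 can therefore be split between the copies or lost, depending on how the mapping treated them, and their values are uncertain.

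The values are RPKM, reads scaled by the length of the gene and by the mapped reads of the sample, which allows levels of different genes to be compared per length. The RPKM steps returned whole reads for 20524 of 20524 genes seen in at least 2 samples (tolerance 0.0001 reads), and the depth was 28219032 to 36058872 mapped reads per sample. Of 12428 genes tested with limma on log2(RPKM + 0.1), 5.2% were up-regulated and 2.7% down-regulated in shRNA-UBC9 at an absolute log2 fold change over 1 and an adjusted p below 0.05. Of 8 epithelial and T24 markers, 7 were tested and the keratin gene KRT7 was down-regulated (555.7 and 258.4 RPKM on average in shRNA-NC and shRNA-UBC9), and the summed level of the list was 1430 to 1670 RPKM and 891 to 1020 RPKM. By the adjusted p alone 4 of the 7 were lower, KRT7 among them. CD44 was higher below the fold cutoff, at 71.3 and 103 RPKM on average (log2 fold change 0.51, limma adjusted p = 0.016). EPCAM, at 0.658 and 1.51 RPKM on average, and VIM, at 467.7 and 365.9 RPKM, did not pass the test. CDH1, the epithelial cadherin gene, was at most 0.00449 RPKM. Of 6 stromal markers, 3 were tested and CDH5 and PDGFRB were down-regulated. PDGFRB, at 0.194 to 0.219 RPKM in shRNA-UBC9, passed the filter of 0.5 RPKM in 3 samples only through its shRNA-NC values. COL1A1, the other tested marker, needed its shRNA-UBC9 values to pass the filter and was higher below the fold cutoff. It was at 0.377 and 0.818 RPKM on average (log2 fold change 0.95, limma adjusted p = 0.0276). The summed level of the stromal list was 3.8 to 4.48 RPKM in shRNA-NC and 1.57 to 1.91 RPKM in shRNA-UBC9. Of 9 leukocyte markers, 2 were tested and CD68 rose from 2.65 to 32.2 RPKM on average, so that the summed level of the list was 2.12 to 4.05 RPKM in shRNA-NC and 19.6 to 49.4 RPKM in shRNA-UBC9. CD14, the other tested leukocyte marker, was at 0.52 and 0.717 RPKM on average and did not pass (log2 fold change 0.47, limma adjusted p = 0.25). PTPRC and CD3E, which define leukocytes and T cells, were at most 0.102 and 0.185 RPKM in either group and at 0 in shRNA-NC replicate 1 and shRNA-UBC9 replicate 3, while MS4A1 and LILRA4, of B cells and plasmacytoid dendritic cells, were at 0 in all 6 samples. CLEC4C, also of plasmacytoid dendritic cells, was at 0.0372 RPKM in shRNA-NC replicate 2 and at 0 in the other samples. ITGAM, of myeloid cells, was at 0.00522 to 0.0351 RPKM over the 6 samples. The part of other cells in the results was not tested. In RNA from bulk cells, more cells of a kind and more RNA per cell cannot be told apart.

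Transcripts of the interferon genes were close to absent in shRNA-NC and present in shRNA-UBC9. IFNB1 and the 3 IFNL genes together gave 1, 2 and 2 reads in the shRNA-NC samples, and 37, 116 and 25 reads in the shRNA-UBC9 samples. As RPM, reads scaled by the mapped reads of the sample alone, this was 0.0335, 0.0577 and 0.0591 against 1.03, 3.29 and 0.886. The groups did not overlap, and shRNA-UBC9 replicate 2 had by far the most ligand reads, although shRNA-UBC9 replicate 1 had slightly more mapped reads in all. In the 3 shRNA-UBC9 samples PTPRC was at 0.0629, 0.102 and 0 RPKM and CD3E at 0.185, 0.130 and 0 RPKM. CD68 was at 18.6, 48.4 and 29.4 RPKM there, and CD14 at 0.706, 0.692 and 0.752 RPKM. Whether other cells gave part of the ligand reads was not tested.

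**Figure D1:**
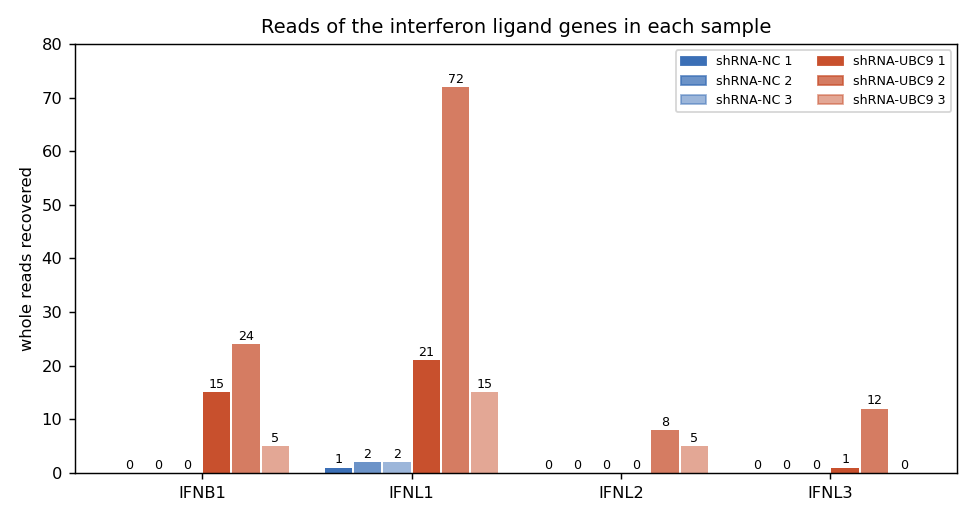
Whole reads of each interferon ligand gene (vertical axis, number printed on each bar) in the 3 shRNA-NC (blue) and 3 shRNA-UBC9 (orange) samples. The shRNA-NC bars are at 0 apart from 1 or 2 reads of IFNL1 per sample, and shRNA-UBC9 replicate 2 has the highest bar of every gene.

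IFNB1, the first interferon made by most cells that sense virus, had no read in any of the 3 shRNA-NC samples. In shRNA-UBC9 it had 15, 24 and 5 reads, which were 0.484, 0.793 and 0.206 RPKM (0.495 ± 0.294, SD, n = 3). All 3 shRNA-UBC9 samples thus lay above all shRNA-NC samples, and the lowest shRNA-UBC9 sample was the one of fewest mapped reads. A floor of 3 reads over the shRNA-NC group, or 0.0305 RPM, was taken as an upper limit for 0 reads. The observed level of IFNB1 in shRNA-UBC9 was 14.5-fold as high as this floor. The floor covers the counting error of the shRNA-NC reads only, and not that of the 44 shRNA-UBC9 reads. The 95% intervals of fold changes come from the spread between samples. The exact two-sided permutation p of the difference was 0.1, the smallest that 3 samples against 3 can give. IFNB1 did not pass the filter of 0.5 RPKM in 3 samples and so was outside the main test. In limma's voom on the whole reads, added after seeing the data, its log2 fold change was 4.72 (95% interval 2.68 to 6.75, adjusted p = 0.00495), and without the filter on RPKM its log2 fold change was 2.44 (adjusted p = 0.00775). IFNB1 met the minimum of 10 reads for voom only through its shRNA-UBC9 reads.

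IFNL1, the type III interferon also called IL-29, gave the most reads of the 4 ligand genes studied. It had 1, 2 and 2 reads in shRNA-NC (0.0391, 0.0674 and 0.0690 RPKM) and 21, 72 and 15 reads in shRNA-UBC9 (0.680, 2.38 and 0.620 RPKM). No shRNA-UBC9 sample came near the shRNA-NC range, and shRNA-UBC9 replicate 2 stood above the others of its group. The mean RPKM was 0.0585 ± 0.0168 in shRNA-NC and 1.23 ± 1.0 in shRNA-UBC9 (SD, n = 3), 21 times as high, or 11.1 times without shRNA-UBC9 replicate 2. On the log2(RPKM + 0.1) scale the fold change was 2.82 (SE 0.47, 95% interval 1.75 to 3.90, limma adjusted p = 0.0027), and it was 2.25 without shRNA-UBC9 replicate 2. IFNL1 passed the filter only through its shRNA-UBC9 values. It made up 56.8%, 62.1% and 60% of the ligand reads of the 3 shRNA-UBC9 samples, so that the share of IFNL1 was alike where the number of ligand reads was not.

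IFNL2 and IFNL3, the neighbouring type III interferons also called IL-28A and IL-28B, were at 0 in all 3 shRNA-NC samples. IFNL2 had 0, 8 and 5 reads in the shRNA-UBC9 samples, which were 0, 0.308 and 0.240 RPKM. IFNL3 had 1, 12 and 0 reads there, which were 0.0360, 0.442 and 0 RPKM. Each gene was therefore seen in some but not all shRNA-UBC9 samples, with groups that overlapped at 0. Over the group, the observed level of each was 4.28-fold as high as the floor of 3 reads. This leaves out the counting error of their 13 shRNA-UBC9 reads each. Neither difference passed a test (exact two-sided permutation p = 0.4 for each, voom adjusted p = 0.202 for IFNL2 and 0.234 for IFNL3). The IFNL3 difference of 0.159 RPKM rested on shRNA-UBC9 replicate 2 and was 0.0180 RPKM without it, and the IFNL2 difference of 0.183 RPKM was 0.120 RPKM without that sample and 0.274 RPKM without shRNA-UBC9 replicate 1. Summed as 1 feature, because reads of the copies can be exchanged, they had 1, 20 and 5 reads in shRNA-UBC9 and a voom log2 fold change of 3.43 (95% interval 0.58 to 6.29, adjusted p = 0.0725).

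Other interferon genes had few reads or none. Of 18 further interferon genes, 13 were at 0 in all 6 samples, IFNG among them, and none passed the filter. IFNA1, IFNA16, IFNK and IFNL4 each had reads in 1 sample only, at no more than 0.0321 RPKM, and the IFNA genes are close copies whose values are uncertain. IFNE, a type I interferon of epithelia that is transcribed without infection, was the exception, with 20, 9 and 15 reads in shRNA-NC and 43, 41 and 17 reads in shRNA-UBC9. These were 0.454, 0.176 and 0.301 RPKM against 0.808, 0.789 and 0.408 RPKM, groups that overlapped, and the difference did not pass (voom adjusted p = 0.0792).

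Among the receptor chains, 4 of 6 were higher in shRNA-UBC9 by the adjusted p, as were 18.8% of all tested genes. No shRNA-NC sample of these 4 reached the shRNA-UBC9 range, which held for 25.7% of all tested genes. The other two, IFNAR1 and IFNGR1, overlapped between the groups. The chains are given by the type of interferon they bind.

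**Figure D2:**
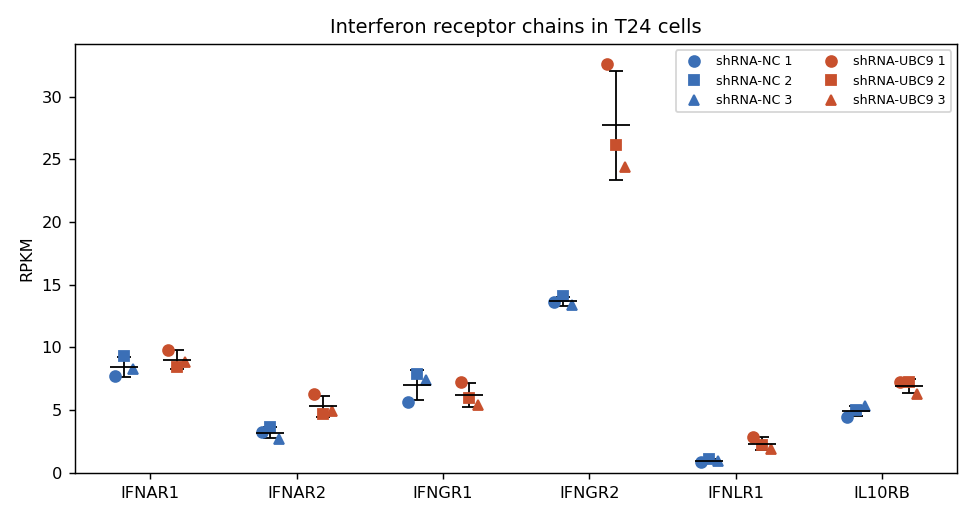
RPKM (vertical axis) of the 6 interferon receptor chains in each shRNA-NC (blue) and shRNA-UBC9 (orange) sample, with horizontal lines at the mean and bars of 1 SD (n = 3). IFNGR2 stands highest, at 13.4 to 14.1 RPKM in shRNA-NC and 24.4 to 32.6 RPKM in shRNA-UBC9, and the points of IFNAR1 and IFNGR1 overlap between the groups.

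IFNAR2, the chain that holds type I interferon most firmly, was at 3.29, 3.62 and 2.74 RPKM in shRNA-NC and at 6.26, 4.72 and 4.96 RPKM in shRNA-UBC9. Every shRNA-UBC9 sample was above every shRNA-NC sample. The means were 3.22 ± 0.44 and 5.32 ± 0.83 RPKM (SD, n = 3), a ratio of 1.65 and a log2 fold change of 0.71 (SE 0.14, limma adjusted p = 0.0064), which was below the fold cutoff. IFNAR1, its partner, was at 7.73, 9.33 and 8.30 RPKM in shRNA-NC and at 9.83, 8.41 and 8.85 RPKM in shRNA-UBC9. These groups overlapped, and the log2 fold change was 0.10 with a 95% interval of -0.14 to 0.33 (limma adjusted p = 0.5). The ratio of IFNAR1 to IFNAR2 RPKM was 2.35, 2.58 and 3.03 in shRNA-NC and 1.57, 1.78 and 1.78 in shRNA-UBC9, without overlap (exact two-sided permutation p = 0.1, the smallest possible).

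IFNLR1, the chain that limits which cells answer type III interferon, was the lowest receptor transcript and showed the largest receptor change. It was at 0.864, 1.11 and 0.924 RPKM in shRNA-NC (127 to 189 reads) and at 2.89, 2.19 and 1.88 RPKM in shRNA-UBC9 (261 to 513 reads). The shRNA-UBC9 samples all lay above the shRNA-NC samples, with replicate 1 the highest. The mean rose from 0.966 ± 0.127 to 2.32 ± 0.52 RPKM (SD, n = 3), a ratio of 2.40 and a log2 fold change of 1.17 (SE 0.18, limma adjusted p = 0.00192). IL10RB, the shared second chain, was at 4.48, 4.99 and 5.30 RPKM in shRNA-NC and at 7.21, 7.23 and 6.26 RPKM in shRNA-UBC9. It was higher in every shRNA-UBC9 sample, by a ratio of 1.40 and a log2 fold change of 0.48 (SE 0.10, limma adjusted p = 0.00852), again below the fold cutoff. The ratio of IL10RB to IFNLR1 RPKM was 5.18, 4.50 and 5.73 in shRNA-NC and 2.49, 3.30 and 3.33 in shRNA-UBC9, without overlap (exact two-sided permutation p = 0.1).

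IFNGR2, the signalling chain of the IFN-gamma receptor, was the highest receptor transcript of both groups. It was at 13.6, 14.1 and 13.4 RPKM in shRNA-NC and at 32.6, 26.1 and 24.4 RPKM in shRNA-UBC9. The groups were far apart, and shRNA-UBC9 replicate 1 was the highest. The mean of 27.7 ± 4.36 RPKM was 2.02 times the shRNA-NC mean of 13.7 ± 0.354 RPKM (SD, n = 3), and the log2 fold change of 0.9986 (SE 0.12, limma adjusted p = 0.000551) was just under the cutoff of 1. Without shRNA-NC replicate 2, shRNA-UBC9 replicate 2 or shRNA-UBC9 replicate 3 it was 1.02, 1.04 and 1.09, past the cutoff, and without shRNA-UBC9 replicate 1 it was 0.88. IFNGR1, the ligand-binding chain, was at 5.64, 7.88 and 7.44 RPKM in shRNA-NC and at 7.24, 5.94 and 5.38 RPKM in shRNA-UBC9. These groups overlapped, and the log2 fold change was -0.17 with a 95% interval of -0.52 to 0.18 (limma adjusted p = 0.419). The ratio of IFNGR2 to IFNGR1 RPKM was 2.42, 1.79 and 1.80 in shRNA-NC and 4.51, 4.40 and 4.53 in shRNA-UBC9, so that it was nearly the same in the 3 shRNA-UBC9 samples although both chains were highest in replicate 1.

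**Figure D3:**
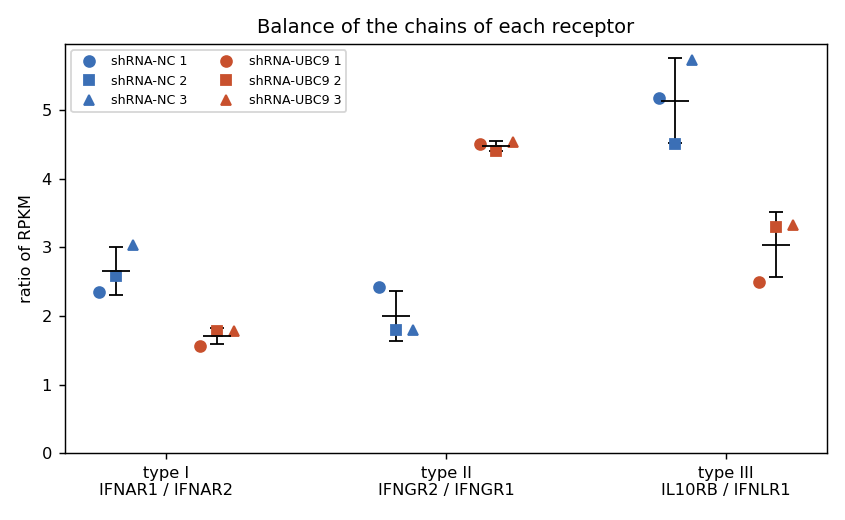
Ratio of RPKM between the paired chains of the type I, type II and type III receptors (vertical axis) in each shRNA-NC (blue) and shRNA-UBC9 (orange) sample, with lines at the mean and bars of 1 SD (n = 3). IFNAR1 to IFNAR2 and IL10RB to IFNLR1 are lower in shRNA-UBC9 (means of 1.71 against 2.65 and of 3.04 against 5.14), and IFNGR2 to IFNGR1 is higher (4.48 against 2.0), without overlap.

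Per length, the order of the receptor transcripts in shRNA-NC was IFNGR2, IFNAR1, IFNGR1, IL10RB, IFNAR2 and IFNLR1, in which IFNAR1 and IFNGR1 overlapped over samples. In shRNA-UBC9 the order was IFNGR2, IFNAR1, IL10RB, IFNGR1, IFNAR2 and IFNLR1, in which IFNGR1 overlapped with both of its neighbours. The ends of the order were the same in both groups, and the ligand transcripts lay below most receptor chains, although IFNL1 in shRNA-UBC9 replicate 2 (2.38 RPKM) exceeded IFNLR1 in the same sample (2.19 RPKM).

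Counted over all 10 genes, 7 were tested, 2 were up-regulated past both cutoffs (IFNL1 and IFNLR1), against 5.2% of all tested genes, and 0 were down-regulated, against 2.7%. By the adjusted p alone 5 were higher (IFNL1, IFNAR2, IFNLR1, IL10RB and IFNGR2), where 18.8% of all tested genes were. These 5 were also the tested genes whose shRNA-UBC9 samples all lay above the shRNA-NC samples, which held for 25.7% of all tested genes. In voom on whole reads 4 were up-regulated (IFNB1, IFNL1, IFNLR1 and IFNGR2), beside 6.18% of the 17431 genes in that fit. Since IFNL1 could enter the main test, and IFNB1 the voom fit, only by being higher in shRNA-UBC9, these counts describe the genes and were not tested.

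**Figure D4:**
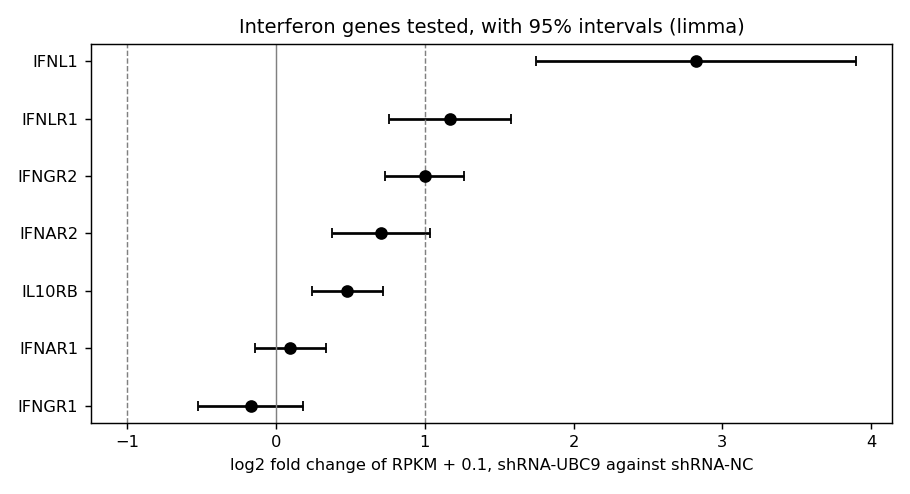
Log2 fold change of RPKM + 0.1 in shRNA-UBC9 against shRNA-NC (horizontal axis) for the 7 tested interferon ligand and receptor genes, with 95% intervals from limma, and dashed lines at the cutoffs of -1 and 1. IFNL1 (2.82) and IFNLR1 (1.17) lie beyond the cutoff, IFNGR2 lies on it, and the intervals of IFNAR1 and IFNGR1 span 0.

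4 of the receptor genes are neighbours on chromosome 21. IFNAR2 (chr21:33205282-33265675), IL10RB (chr21:33266367-33311420), IFNAR1 (chr21:33324387-33359864) and IFNGR2 (chr21:33403413-33479348) follow each other on the plus strand of GRCh38 within 274.1 kb, whereas IFNLR1 (chr1:24154168-24187959) and IFNGR1 (chr6:137197483-137219449) lie alone on the minus strand of their chromosomes. The order along the cluster was not the order of change, since IFNAR1, with a log2 fold change of 0.10, lay between IL10RB at 0.48 and IFNGR2 at 0.9986. Of 12 other genes around the cluster, 9 were tested and 0 passed both cutoffs, beside 5.2% of all tested genes up and 2.7% down. The median log2 fold change of the 9 was -0.18 beside 0.00482 over all tested genes. By the adjusted p alone SYNJ1 was higher (log2 fold change 0.33), and TMEM50B (-0.38) and DONSON (-0.31) were lower. IFNAR2 and IL10RB are 0.7 kb apart and share an annotated read-through transcript, and IL10RB has antisense transcripts, so reads of these genes could be exchanged if strand was not used in counting, which is not given in the sources used here. IL10RB-AS1, the antisense gene in the files, was at 0.755 ± 0.336 and 0.665 ± 0.173 RPKM (SD, n = 3), and its difference did not pass (limma adjusted p = 0.789).

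Of 23 sensors, adaptors, kinases and transcription factors that control IFNB1 and the IFNL genes, 22 were tested, 8 were up-regulated and 0 down-regulated past both cutoffs, with a median log2 fold change of 0.76. Over all tested genes 5.2% were up-regulated and 2.7% down-regulated past both cutoffs. By the adjusted p alone 19 of the list were higher, beside 18.8% of all tested genes. IRF7, the factor that amplifies interferon transcription, was at 13.1, 16 and 13.5 RPKM in shRNA-NC and at 63.8, 112 and 76.7 RPKM in shRNA-UBC9 (log2 fold change 2.52, limma adjusted p = 8.33e-05). IFIH1, the RNA sensor MDA5, was at 2.89, 4.46 and 3.30 RPKM and at 16.5, 31.0 and 12.7 RPKM (2.39, adjusted p = 0.000806). The largest change was that of TNFAIP3, which restrains NF-kappaB rather than inducing interferon, with 9.34, 10.6 and 3.76 RPKM against 77.0, 79.6 and 77.0 RPKM (3.42, adjusted p = 0.000256). MAVS, the adaptor of the RNA sensors, was named after its values were seen as the only gene of the list that was lower by the adjusted p (24.2 ± 0.61 and 18.2 ± 1.16 RPKM, SD, n = 3, log2 fold change -0.41, adjusted p = 0.0065).

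Of the genes that act directly below the receptors, IRF9, which completes the transcription factor of type I and III signalling, was up-regulated. IRF9 was at 6.16, 7.79 and 6.92 RPKM in shRNA-NC and at 20.5, 22.3 and 17.5 RPKM in shRNA-UBC9 (log2 fold change 1.52, limma adjusted p = 0.000109). Its groups were far apart, and like the ligands it was highest in shRNA-UBC9 replicate 2. STAT2 (0.85, adjusted p = 0.0182) and JAK1 (0.31, adjusted p = 0.0398) were higher below the fold cutoff. JAK2 (95% interval of the log2 fold change -0.27 to 0.26), TYK2 (-0.24 to 0.18) and STAT3 (-0.07 to 0.41) did not pass the test.

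Of 11 genes that damp or remove interferon receptors, 10 were tested. Of these, 3 were up-regulated and 0 down-regulated, beside 5.2% and 2.7% of all tested genes. The median log2 fold change of the 10 was 0.21. USP18, which blocks signalling at IFNAR2, was at 5.19, 8.72 and 5.98 RPKM in shRNA-NC and at 26.8, 81.4 and 33.1 RPKM in shRNA-UBC9 (log2 fold change 2.67, limma adjusted p = 0.00141). ISG15, which stabilises USP18, was at 112, 132 and 128 RPKM and at 480, 1030 and 502 RPKM (2.34, adjusted p = 0.000481), and SOCS3, an inhibitor of JAK kinases, changed by 1.02 (adjusted p = 0.00637). The list fell to 2 up-regulated genes without shRNA-NC replicate 3, shRNA-UBC9 replicate 2 or shRNA-UBC9 replicate 3. The phosphatase genes PTPN1 (-0.54, adjusted p = 0.00315) and PTPN2 (-0.52, adjusted p = 0.0121) were lower below the fold cutoff. PIAS1, a SUMO ligase, was at 3.93 ± 0.12 and 4.16 ± 0.30 RPKM (SD, n = 3, adjusted p = 0.547).

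Genes known to respond to interferon were higher in the same samples as the ligands. All 29 type I and III response genes were tested, 26 were up-regulated and 0 down-regulated, beside 5.2% and 2.7% of all tested genes. The median log2 fold change of the 29 was 2.43. IFI44L was at 0.635, 1.85 and 1.19 RPKM in shRNA-NC and at 39.9, 53.3 and 25.8 RPKM in shRNA-UBC9 (log2 fold change 4.96, limma adjusted p = 6.8e-05). RSAD2, the antiviral enzyme viperin, changed by 4.77 (adjusted p = 0.000611), and MX1, an antiviral GTPase, by 4.53 (adjusted p = 0.000184). RSAD2, at 0.284, 0.842 and 0.263 RPKM in shRNA-NC, passed the filter only with its shRNA-UBC9 values, as did CMPK2 of this list. The 3 genes that did not pass, named for that reason, were OASL, IFIT2 and HERC5, with log2 fold changes of -0.11, 0.07 and 0.46. USP18, ISG15, IFIH1, DDX58 and DHX58 are counted here and also in a list above. The mean log2(RPKM + 0.1) of the 29 genes was 2.37, 3.13 and 2.68 in shRNA-NC and 5.04, 6.04 and 4.91 in shRNA-UBC9. Within shRNA-UBC9 its order over the samples was that of the ligand reads, with replicate 2 highest and replicate 3 lowest, and in shRNA-NC, where the ligands gave 1 or 2 reads, replicate 2 was also the highest.

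**Figure D5:**
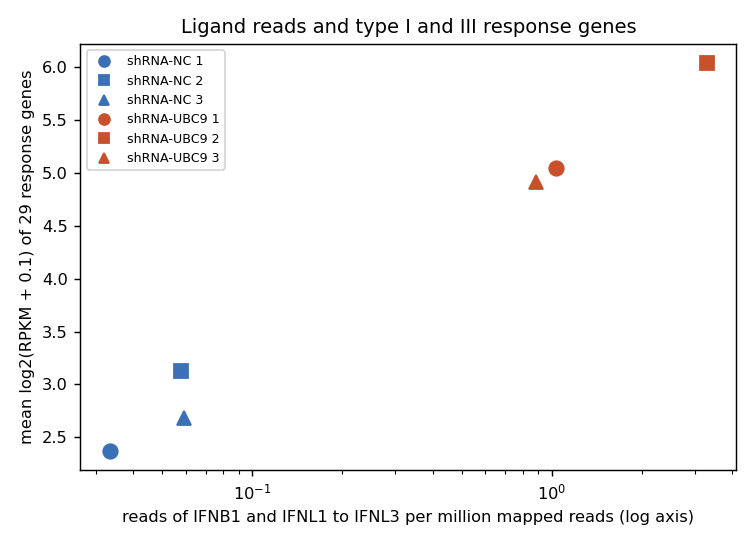
Mean log2(RPKM + 0.1) of 29 type I and III response genes (vertical axis) against the summed RPM of IFNB1 and IFNL1 to IFNL3 (horizontal log axis), 1 point per sample. The shRNA-UBC9 samples (orange, 0.886 to 3.29 RPM) lie apart from the shRNA-NC samples (blue, 0.0335 to 0.0591 RPM), and in each group replicate 2 has the highest response value.

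Of 17 genes typical of the IFN-gamma response, several of which answer other cytokines too, 12 were tested. Of these, 7 were up-regulated and 0 down-regulated, beside 5.2% and 2.7% of all tested genes. The median log2 fold change of the 12 was 1.64. The chemokine gene CXCL11 was at 0.0351, 0.227 and 0.0465 RPKM in shRNA-NC and at 7.69, 28.8 and 4.16 RPKM in shRNA-UBC9 (log2 fold change 5.73, limma adjusted p = 0.000495). CXCL11 and GBP5 passed the filter only through their shRNA-UBC9 values, so they could be tested only if higher there. CXCL10, at 0.171, 0.589 and 0.0503 RPKM in shRNA-NC, also needed its shRNA-UBC9 values to pass. CXCL10 changed by 5.55 (adjusted p = 0.00242) and the guanylate-binding protein gene GBP5 by 4.15 (adjusted p = 0.000174). Other classical targets of IFN-gamma were not called. IRF1 was at 7.23 ± 0.53 and 5.36 ± 1.63 RPKM (SD, n = 3, adjusted p = 0.0834), and CIITA, at 0.123 ± 0.026 and 0.106 ± 0.014 RPKM, and CXCL9, at no more than 0.104 RPKM, were too low to be tested. ICAM1, GBP1, GBP2, CD74, IRF1, CIITA and CXCL9 were named after their values were seen.

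Relatives of the interferon genes in the class II cytokine family gave few tested genes. Of 12 such genes, 5 were at 0 in all samples and 3 were tested. All 3 of these were up-regulated, beside 5.2% of all tested genes, with a median log2 fold change of 1.96 over the 3. IL24, a cytokine of the IL-10 family, was at 0.0339, 0.146 and 0.0149 RPKM in shRNA-NC and at 2.66, 1.56 and 0.609 RPKM in shRNA-UBC9 (log2 fold change 3.25, limma adjusted p = 0.00211), and like IFNL1 it passed the filter only through shRNA-UBC9. F3, tissue factor, changed by 1.96 (adjusted p = 0.00648). IL22RA1, which pairs with IL10RB to bind IL-22, was at 0.347, 0.547 and 0.708 RPKM and at 1.19, 1.81 and 1.20 RPKM (1.26, adjusted p = 0.00697). IL22RA1 also needed its shRNA-UBC9 values to pass the filter, so the count of 3 describes the genes and was not tested. IL22, IL10 and IL26, ligands that also need IL10RB, were at 0 in all 6 samples.

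The tested genes whose log2(RPKM + 0.1) followed IFNB1 most closely over the 6 samples were KPNA5 (Pearson r = 0.9989), RAB9A (0.9981), C3AR1 (0.998), TRIM39 (0.9979) and TRIM56 (0.9968). For IFNL1 they were UBE2L6 (0.9982), IFIT3 (0.9974), POMP (0.9969), TNFSF13B (0.9966) and SLC15A3 (0.9963). For the sum of IFNL2 and IFNL3 they were GOLM1 (0.9869), FAM120AOS (0.9838), CXorf40B (0.9827), SERP1 (0.9819) and GLRX2 (0.9819). No gene was on more than one of these lists. The 6 points form 2 groups that differ in most of these genes and share library and depth, so the coefficients describe the ordering of these samples and carry no test.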

How the data were processed

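Total RNA of T24 cells was made into poly(A) libraries. After adaptor trimming, the authors aligned reads to GRCh38 in the CLC Biomedical Genomics Workbench under default settings, and they deposited RPKM values for 58174 genes in each of 6 samples. The annotation release, the use of strand and the treatment of reads that map to several places are not given in the sources used here. RPKM are not counts, so no count model was the main test. On the log2(RPKM + 0.1) scale, 12428 genes with at least 0.5 RPKM in at least 3 samples were compared between shRNA-UBC9 and shRNA-NC with limma 3.58.1 in R 4.3.3 (eBayes with trend). Benjamini-Hochberg adjustment ran over all 12428 genes. A DEG had an absolute log2 fold change over 1 and an adjusted p below 0.05. Every adjusted p of a gene is from limma or its voom method. Fold changes on this scale understate the change of low genes.

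Because values are whole multiples of what 1 read is worth, mapped reads and reads per gene were recovered from the RPKM values as the fewest whole reads that fit all samples, and whether 1 read stands for a read or a read pair is not known. These reads entered limma's voom (genes with at least 10 reads in all) as an added alternative. Genes under the filter were compared by exact two-sided permutation of the 6 samples.

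Some genes are not reported here. The genes studied and the lists were chosen with earlier results of these data known. Within each list the genes with the 3 largest absolute log2 fold changes among DEGs, and any DEG that fell, were named, and the 5 tested genes of highest Pearson correlation with IFNB1, IFNL1 and the sum of IFNL2 and IFNL3. Sequences are from RefSeq (GRCh38.p14) and gene positions from GENCODE 44 (GRCh38). Of 200 genes simulated with a log2 change of 2 among 12428, limma recovered 94%, with 1 false call. The simulated noise was normal and independent. The share does not give the recovery of changes near the cutoff of 1 or of genes with few reads. Alternatives were other pseudocounts, filters, scalings, cutoffs, a replicate block and leaving out samples. Python 3.11.15 was used with numpy 2.4.6, pandas 2.3.3 and scipy 1.17.1.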

Additional observations from a re-analysis of the deposited data

How the results depend on the processing

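Of the 10 interferon genes, the 2 up-regulated became 1 with a pseudocount of 0.5 and 0 with a pseudocount of 1 or with at least 1 RPKM asked in all 6 samples, which removes IFNL1 and IFNLR1 from the test. They became 4 in voom on whole reads, also with IFNL2 and IFNL3 summed, and 5 without a fold cutoff. IFNL1 and IFNLR1 had log2 fold changes of 0.99 and 0.75 with a pseudocount of 1, and IFNLR1 0.93 with 0.5, since the pseudocount is large beside their RPKM. Over all genes the 646 up-regulated and 335 down-regulated became 222 down-regulated with a pseudocount of 0.5, 391 and 161 with a pseudocount of 1, 342 and 210 with at least 1 RPKM in all 6 samples, 2339 and 2237 without a fold cutoff, and 1077 up-regulated in voom. Leaving out each sample gave 604 to 702 up-regulated and 308 to 363 down-regulated genes, and 2 to 3 up-regulated and 0 down-regulated interferon genes. The differences in RPKM were 0.345 to 0.639 for IFNB1, 0.120 to 0.274 for IFNL2 and 0.0180 to 0.239 for IFNL3. No listed value changed direction in the alternatives run.

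Same-numbered samples of the groups did not deviate together (correlations of -0.367, 0.0728 and -0.171 over tested genes), so the numbers do not pair them. The highest correlation was that of shRNA-NC replicate 1 with shRNA-UBC9 replicate 3 (0.526), the libraries of fewest reads, and without both, a choice made after seeing the data, 645 genes were up-regulated and 366 down-regulated, 3 of the up-regulated being interferon genes. A fit with the replicate number as a block gave 642 up-regulated and 332 down-regulated genes, 2 of the up-regulated being interferon genes. Depth limits IFNB1, IFNL2 and IFNL3, which rest on 44, 13 and 13 reads.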
